A study of Homo sapiens with 12 samples.

Results

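The 8 genes described here belong to the vitamin D and retinoid systems: CYP24A1, VDR, STRA6, CRABP2, DHRS3, RARA, RARB and RXRA, of 62703 gene IDs in the count table. CYP24A1 and STRA6 were chosen by their counts, since both were lower in H69 cells given TGFβ + Aramchol than in cells given TGFβ alone, in these same libraries, and the other 6 were added as receptors, a binding protein and an enzyme of the same systems. The difference between TGFβ + Aramchol and TGFβ is therefore given for all 8 as values, with no test. Each comparison that is tested below, apart from Aramchol against vehicle, also uses the TGFβ + Aramchol or the TGFβ libraries that served in the choice. All 8 genes passed the filter on low counts.

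H69 is a human cholangiocyte line, grown from normal bile duct epithelium and made immortal with a viral T antigen. The 12 RNA sequencing libraries form 4 groups of 3: TGFβ + Aramchol, TGFβ, Aramchol and vehicle. After 6 h without serum, cells received TGFβ at 10 ng/mL, Aramchol at 30 µM, the combination or vehicle overnight in medium without serum. Neither vitamin D nor a retinoid is named among the supplements of the growth medium, and the sources used here do not say whether the 3 libraries of a group came from separate cultures, so that p-values measure the spread between libraries, which may be technical. TGFβ is a cytokine of wound repair and fibrosis, and Aramchol is a conjugate of a bile acid with a saturated fatty acid that inhibits stearoyl-CoA desaturase.

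Active vitamin D and retinoic acid are small fat-soluble hormones that act through nuclear receptors. The vitamin D receptor VDR and the retinoic acid receptors bind DNA together with a retinoid X receptor such as RXRA, at repeats of a short core sequence in the regulatory regions of their target genes. Vitamin D induces CYP24A1, the mitochondrial hydroxylase that breaks it down. Retinoic acid likewise induces the CYP26 hydroxylases that break it down, and also STRA6 and RARB. In the liver, retinoids are stored mainly in stellate cells, and cholangiocytes are the liver's epithelial cells in which VDR is best known.

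Values are CPM, counts relative to the TMM-scaled library total. A gene is called where edgeR's quasi-likelihood test gave a p below 0.05 after Benjamini-Hochberg adjustment over 21567 genes. Libraries held 52279922 to 70339925 counts, and 3 counts in a library corresponded to 0.0410 to 0.0548 CPM. The keratin genes KRT7, KRT8, KRT18 and KRT19 of bile duct epithelium were detected in every library (14.8 to 1033 CPM), whereas CFTR, a chloride channel of cholangiocytes, was at or under 3 counts in all 4 groups. Of 9 stellate cell markers, HAND2 had no count and COLEC11 had at most 3 counts in a library. The summed level of these 9 was 7.82 to 8.31 CPM in TGFβ + Aramchol, 8.86 to 10.4 in TGFβ, 6.97 to 8.40 in Aramchol and 7.0 to 10.1 in vehicle libraries. The libraries numbered 3 stood apart from those numbered 1 and 2. The number 3 library was the lowest of its group in all 4 groups for CYP24A1, VDR and DHRS3, and the highest in 3 of 4 groups for CRABP2. Results that rest on these libraries are given with and without them.

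**Figure D1:**
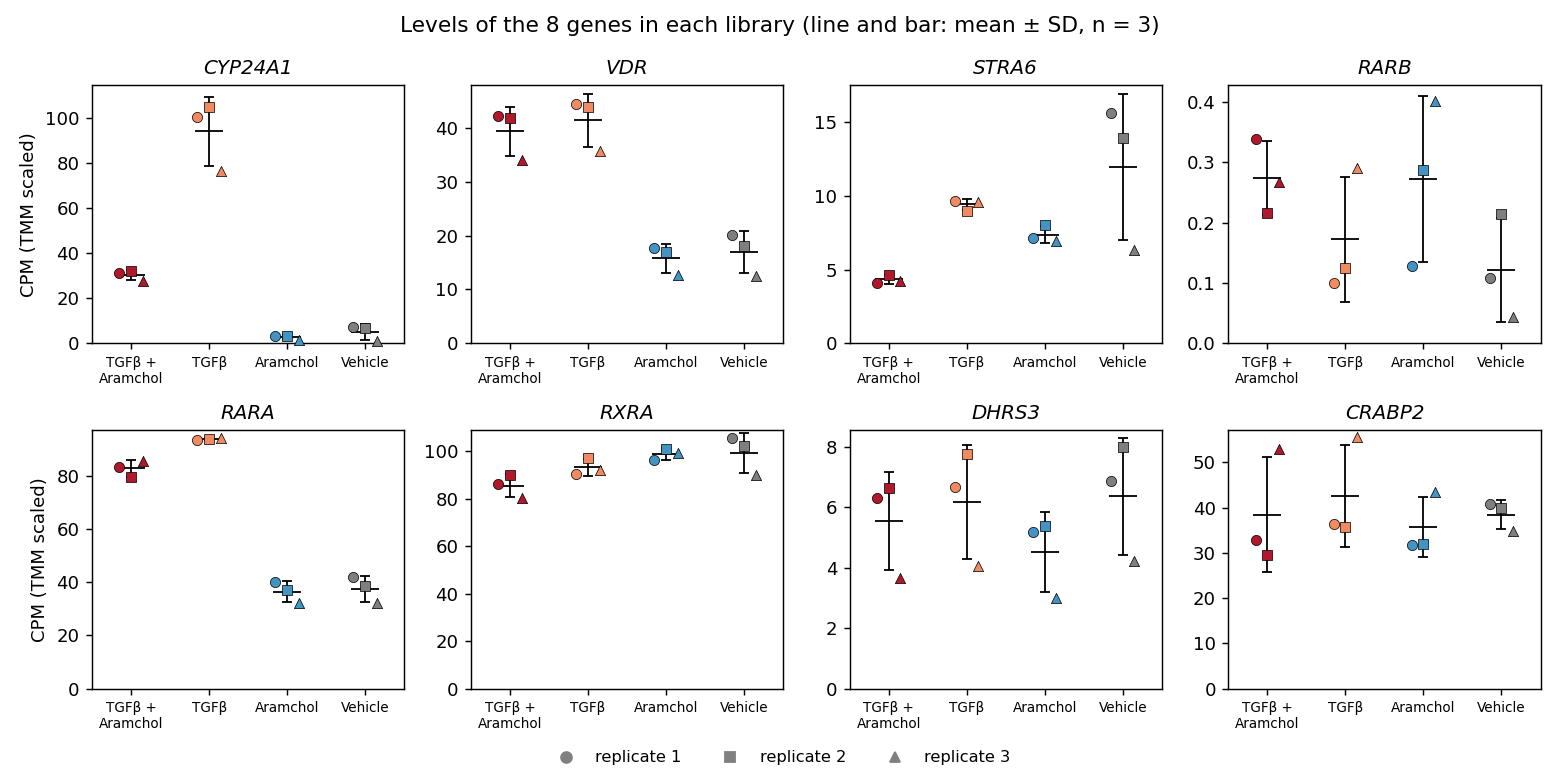
CPM of each of the 8 genes (y axis, linear from 0) in the 12 libraries, with groups along the x axis, 1 symbol per library and the line and bar for mean ± SD (n = 3). CYP24A1 is highest in TGFβ, VDR and RARA are high in the groups with TGFβ, STRA6 is lowest in TGFβ + Aramchol, and the triangles (replicate 3) are low in every group for CYP24A1, VDR and DHRS3.

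CYP24A1 (ENSG00000019186, chromosome 20, 54153446 to 54173986, minus strand, GRCh38), the enzyme that inactivates vitamin D, showed the widest range of the 8. It had 31.2, 31.99 and 28.0 CPM in TGFβ + Aramchol libraries, 101, 105 and 76.8 CPM in TGFβ libraries, 3.51, 3.24 and 1.64 CPM in Aramchol libraries, and 7.46, 6.79 and 1.22 CPM in vehicle libraries. The TGFβ libraries were the highest and did not overlap with any other group, the TGFβ + Aramchol libraries lay between them and the groups without TGFβ, and the Aramchol and vehicle libraries overlapped, with vehicle replicate 3 far below the other vehicle libraries.

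CYP24A1 averaged 94.2 ± 15.3 CPM in TGFβ and 5.16 ± 3.42 CPM in vehicle (SD, n = 3 each), 18.4-fold higher with TGFβ (log2 fold change 4.20, SE 0.39, adjusted p = 3.66e-07, edgeR). Among Aramchol-treated cells, it averaged 30.4 ± 2.13 CPM with TGFβ and 2.79 ± 1.01 CPM without it, 10.9-fold higher (log2 3.45, SE 0.40, adjusted p = 6.47e-06, edgeR). The rise with TGFβ was thus called with and without Aramchol. The pair of comparisons shares no library, but both were taken from the same fit, with a spread shared over all libraries. The TGFβ and the TGFβ + Aramchol libraries also served in the choice of CYP24A1, with TGFβ as the higher side. TGFβ + Aramchol also exceeded vehicle, 5.94-fold (log2 2.57, adjusted p = 5.86e-05, edgeR). Leaving out each library in turn kept these calls but moved their sizes. The log2 fold change was 3.72 to 4.59 for TGFβ against vehicle and 3.17 to 3.63 for TGFβ + Aramchol against Aramchol. For TGFβ + Aramchol against vehicle it was 2.09 to 2.95. CYP24A1 was 3.10-fold lower in TGFβ + Aramchol than in TGFβ (log2 -1.63), which is the difference it was chosen for and is given as a value only.

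Aramchol alone was the comparison that had no part in the choice. There CYP24A1 differed by -0.88 on the log2 scale (SE 0.43), which was not called (adjusted p = 0.443, edgeR). Without vehicle replicate 3 the difference was -1.36 and was called (adjusted p = 0.0029), and with the libraries numbered 1 and 2 alone it was -1.08 (adjusted p = 1.45e-08). With each library left out in turn it ranged from -1.36 to -0.50, with an adjusted p of up to 0.769 (edgeR). It was not called with a replicate block or with a term for the libraries numbered 3.

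VDR (ENSG00000111424, chromosome 12, 47841537 to 47943048, minus strand), the receptor through which vitamin D acts, had 42.1, 41.8 and 34.1 CPM in TGFβ + Aramchol libraries, 44.5, 43.8 and 35.7 CPM in TGFβ libraries, 17.6, 17.0 and 12.7 CPM in Aramchol libraries, and 20.04, 18.1 and 12.5 CPM in vehicle libraries. The libraries with TGFβ all lay above those without it, and within each of these sets the groups overlapped. VDR rose 2.45-fold with TGFβ against vehicle (log2 1.29, SE 0.16, adjusted p = 7.11e-06, edgeR) and 2.49-fold with TGFβ + Aramchol against Aramchol (log2 1.32, SE 0.16, adjusted p = 7.95e-06). Against vehicle, TGFβ + Aramchol was 2.33-fold higher (adjusted p = 1.56e-05). Aramchol and vehicle differed by -0.10 (SE 0.16, adjusted p = 0.855), and TGFβ + Aramchol and TGFβ by -0.07.

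In bulk RNA, a change in the share of cells that express a gene and a change in RNA per cell cannot be told apart. Among the other genes of vitamin D metabolism and uptake, 5 of 7 listed could be tested, and 1 rose and 1 fell with TGFβ against vehicle, a comparison in which 37.0% of all genes tested were called. CYP27A1, a mitochondrial hydroxylase that can make 25-hydroxyvitamin D and also works in bile acid synthesis, fell to 14.6 ± 2.42 CPM in TGFβ, against 22.7 ± 1.37 CPM in vehicle (log2 -0.63, SE 0.11, adjusted p = 0.000337, edgeR), and to 13.9 ± 1.48 CPM in TGFβ + Aramchol, against 19.3 ± 1.92 CPM in Aramchol (adjusted p = 0.00456). LRP2 encodes megalin, the endocytic receptor that takes up the vitamin D binding protein in kidney. It rose to 19, 26 and 15 counts in TGFβ, against 2, 8 and 2 counts in vehicle (log2 2.39, SE 0.58, adjusted p = 0.00397), and to 29, 31 and 17 counts in TGFβ + Aramchol, against 3, 9 and 2 counts in Aramchol (log2 2.47, adjusted p = 0.00284). The size rests on few counts: without vehicle replicate 2 the first difference was 3.40, and without Aramchol replicate 2 the second was 3.23, both still called. CYP27B1, which makes the active hormone, stayed between 1.92 and 2.18 CPM on average in the 4 groups and was called in no comparison, with an adjusted p of 0.92 for TGFβ against vehicle. CYP27B1 was named after its values were seen.

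Of 18 listed target genes of the receptor 13 could be tested, and with TGFβ against vehicle 2 rose (IGFBP3 and HBEGF) and 6 fell (CD14, SERPINB1, SLC34A2, FBP1, CLMN and NINJ1), which is 61.5% called, beside 37.0% of all genes tested (18.9% higher and 18.1% lower). The median log2 fold change of the 13 was 0.08, beside -0.03 over all genes tested. CD14, a co-receptor for bacterial lipopolysaccharide, fell to 5.24, 5.22 and 5.96 CPM in TGFβ, against 34.3, 31.5 and 27.9 CPM in vehicle (log2 -2.51, SE 0.11, adjusted p = 6.84e-11, edgeR). SERPINB1, an inhibitor of neutrophil proteases, fell to 33.3 ± 1.57 CPM in TGFβ, against 72.4 ± 2.16 CPM in vehicle (adjusted p = 9.23e-10). SLC34A2, a phosphate transporter, fell to 3, 10 and 11 counts in TGFβ, against 197, 211 and 86 counts in vehicle (log2 -4.24, adjusted p = 2.01e-06). The same 3 genes were called lower in TGFβ + Aramchol than in Aramchol, with log2 fold changes of -2.19 for CD14, -0.92 for SERPINB1 and -3.25 for SLC34A2.

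STRA6 (ENSG00000137868, chromosome 15, 74179466 to 74212267, minus strand), the membrane receptor that carries vitamin A from retinol binding protein into cells, had 4.10, 4.66 and 4.25 CPM in TGFβ + Aramchol libraries, 9.68, 9.0 and 9.59 CPM in TGFβ libraries, 7.12, 8.03 and 6.95 CPM in Aramchol libraries, and 15.6, 13.9 and 6.36 CPM in vehicle libraries. The 3 TGFβ + Aramchol libraries were below all 9 others, and vehicle replicate 3 lay below the other vehicle libraries and below all Aramchol and TGFβ libraries. Of the gene's exon length 6.77% overlaps CCDC33 on the other strand, which had 243 counts over the 12 libraries, against 6247 for STRA6, and the sources used here do not say whether reads were counted by strand.

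STRA6 averaged 4.33 ± 0.290 CPM in TGFβ + Aramchol and 9.43 ± 0.368 CPM in TGFβ, 2.18-fold lower, the difference it was chosen for. Against vehicle, at 11.95 ± 4.92 CPM, TGFβ + Aramchol was 2.75-fold lower (log2 -1.46, SE 0.23, adjusted p = 0.000107, edgeR). Against Aramchol, at 7.37 ± 0.580 CPM, it was 1.70-fold lower (log2 -0.77, SE 0.23, adjusted p = 0.0181), a call that was lost without Aramchol replicate 2, TGFβ + Aramchol replicate 1 or TGFβ + Aramchol replicate 3 (adjusted p up to 0.0656). TGFβ against vehicle gave -0.34 (SE 0.22, adjusted p = 0.247) and Aramchol against vehicle -0.70 (SE 0.22, unadjusted p = 0.00622, adjusted p = 0.224), so that neither agent alone was called. Without vehicle replicate 3, TGFβ against vehicle was -0.65 (adjusted p = 5.53e-05) and Aramchol against vehicle -1.001 (adjusted p = 0.000152), both called. The libraries numbered 1 and 2 alone gave -0.66 and -0.96, again called. With each library left out in turn, TGFβ against vehicle ranged from -0.65 to -0.10 (adjusted p up to 0.772, edgeR). Aramchol against vehicle ranged from -1.001 to -0.45 (adjusted p up to 0.527). Neither was called with a replicate block or with a term for the libraries numbered 3.

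The retinoic acid receptor genes differed among themselves. RARA (ENSG00000131759, chromosome 17, 40309180 to 40357643, plus strand) had 83.4, 79.4 and 85.7 CPM in TGFβ + Aramchol libraries, 93.3, 93.6 and 94.0 CPM in TGFβ libraries, 39.98, 37.1 and 32.2 CPM in Aramchol libraries, and 41.9, 38.5 and 32.004 CPM in vehicle libraries. The libraries with TGFβ all lay above those without it. RARA rose 2.50-fold with TGFβ against vehicle (log2 1.32, SE 0.09, adjusted p = 8.77e-09, edgeR) and 2.28-fold with TGFβ + Aramchol against Aramchol (log2 1.19, SE 0.09, adjusted p = 4.13e-08). Aramchol against vehicle gave -0.04 (adjusted p = 0.896). Every TGFβ + Aramchol library was below every TGFβ library, with a log2 difference of -0.18, given as a value only. The antisense gene RARA-AS1 overlaps 11.7% of the exon length of RARA and had 1530 counts over the 12 libraries, against 46990 for RARA.

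RARB (ENSG00000077092, chromosome 3, 24687887 to 25597932, plus strand), itself a classical target of retinoic acid, was the least abundant of the 8. It had 22, 13 and 18 counts in TGFβ + Aramchol libraries, 6, 8 and 16 counts in TGFβ libraries, 7, 21 and 27 counts in Aramchol libraries, and 7, 13 and 3 counts in vehicle libraries. The groups overlapped or, for TGFβ + Aramchol and vehicle, touched at 13 counts. No comparison was called: TGFβ against vehicle gave 0.50 (SE 0.61, adjusted p = 0.566, edgeR) and Aramchol against vehicle 1.19 (SE 0.57, adjusted p = 0.432). TGFβ + Aramchol against vehicle also gave 1.19 (SE 0.57, adjusted p = 0.123, and 0.0477 without vehicle replicate 2). At these counts the SE of the log2 fold change of RARB was 0.61 for TGFβ against vehicle, against 0.16 for VDR. TGFβ + Aramchol and TGFβ differed by 0.69, given as a value only, the one difference above 0 among the 8 in that comparison.

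RXRA (ENSG00000186350, chromosome 9, 134317098 to 134440585, plus strand), the shared partner of VDR and the retinoic acid receptors, had 86.2, 90.0 and 80.5 CPM in TGFβ + Aramchol libraries, 90.5, 97.2 and 92.1 CPM in TGFβ libraries, 96.1, 101 and 99.4 CPM in Aramchol libraries, and 106, 102 and 89.8 CPM in vehicle libraries. The groups lay close together. TGFβ against vehicle gave -0.09 (SE 0.06, adjusted p = 0.303, edgeR) and Aramchol against vehicle -0.01 (SE 0.06, adjusted p = 0.983). Without vehicle replicate 3, TGFβ against vehicle was -0.16 and was called (adjusted p = 0.0404), and the libraries numbered 1 and 2 alone gave -0.15 (adjusted p = 0.0415). TGFβ + Aramchol and TGFβ differed by -0.13, given as a value only. TGFβ + Aramchol was lower than Aramchol (log2 -0.21, adjusted p = 0.0203) and lower than vehicle (log2 -0.21, adjusted p = 0.015), and each of these calls was lost on leaving out any of 3 libraries. Those were Aramchol replicate 2, Aramchol replicate 3 or TGFβ + Aramchol replicate 3 against Aramchol (adjusted p up to 0.102), and TGFβ + Aramchol replicate 3, vehicle replicate 1 or vehicle replicate 2 against vehicle (adjusted p up to 0.0792).

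DHRS3 (ENSG00000162496, chromosome 1, 12567910 to 12618210, minus strand), a reductase that turns retinal back into retinol, had 6.30, 6.63 and 3.66 CPM in TGFβ + Aramchol libraries, 6.68, 7.77 and 4.07 CPM in TGFβ libraries, 5.19, 5.37 and 3.004 CPM in Aramchol libraries, and 6.86, 7.99 and 4.23 CPM in vehicle libraries. In every group the library numbered 3 held 0.564 to 0.570 of the mean of the other libraries of its group, a wider gap than any between groups. No comparison was called with 1 mean per group over the 12 libraries and the filter on low counts. Aramchol against vehicle was -0.49 and was called from the libraries numbered 1 and 2 alone (adjusted p = 0.00916, edgeR) and without the filter (adjusted p = 0.0270). With a term for number 3, Aramchol against vehicle was -0.49 (adjusted p = 0.0109, edgeR) and TGFβ + Aramchol against Aramchol 0.29 (adjusted p = 0.0258), at the same sizes as without the term. The value for TGFβ + Aramchol against TGFβ was -0.16.

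CRABP2 (ENSG00000143320, chromosome 1, 156699606 to 156705816, minus strand), which carries retinoic acid to its receptors, had 32.8, 29.5 and 53.1 CPM in TGFβ + Aramchol libraries, 36.4, 35.8 and 55.7 CPM in TGFβ libraries, 31.7, 31.9 and 43.4 CPM in Aramchol libraries, and 40.7, 39.9 and 34.8 CPM in vehicle libraries. The number 3 libraries were the highest except in vehicle, all groups overlapped, and no comparison was called (adjusted p 0.613 to 0.997, edgeR). In the libraries numbered 1 and 2 alone, TGFβ + Aramchol was lower than vehicle (log2 -0.37, adjusted p = 3.87e-05) and Aramchol lower than vehicle (log2 -0.34, adjusted p = 0.00123). The value for TGFβ + Aramchol against TGFβ was -0.15 with all libraries.

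Counted over the 8 genes, 3 rose with TGFβ against vehicle and none fell, in a comparison in which 37.0% of all genes tested were called, 18.9% higher and 18.1% lower. The calls of these 3 genes, CYP24A1, VDR and RARA, held with a term for number 3, in the libraries numbered 1 and 2 alone, and with any 1 library left out. In TGFβ + Aramchol against Aramchol the same 3 genes rose and STRA6 and RXRA fell, against a background of 30.2% (16.0% higher and 14.2% lower). TGFβ + Aramchol against vehicle gave calls for the same genes in the same directions, against 35.2% (18.2% higher and 17.0% lower). STRA6 was chosen for low values in the TGFβ + Aramchol libraries, which both comparisons use, so its calls there are no separate support. Its call against Aramchol and both calls of RXRA were lost on leaving out single libraries. With Aramchol against vehicle, edgeR called none of the 8, where 0.357% of all genes tested were called. At an unadjusted p under 0.05 there was 1 of the 8, STRA6, where 11.7% of all genes tested passed. DESeq2 called 0 (1 of the 8 had no adjusted p there). Between TGFβ + Aramchol and TGFβ, 2.25% of all genes tested were called. In that comparison CYP24A1, STRA6, RARA and RXRA did not overlap between groups and were lower in TGFβ + Aramchol. The share of all genes tested that did not overlap there in either direction was 23.6%, and nothing is read from the count, since the choice of genes used this comparison.

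**Figure D2:**
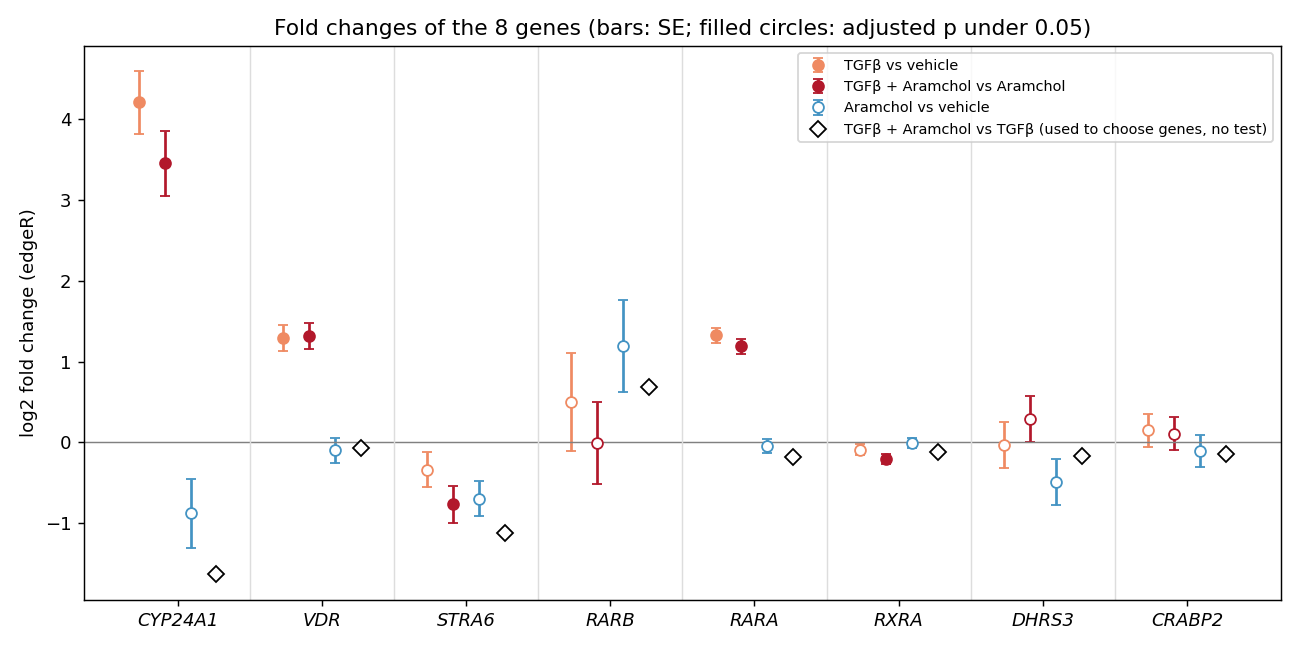
Log2 fold changes (y axis) of the 8 genes in 4 comparisons, with bars for the SE and filled circles for an adjusted p under 0.05. CYP24A1, VDR and RARA lie above 0 with TGFβ whether or not Aramchol was present (4.20 and 3.45, 1.29 and 1.32, 1.32 and 1.19), and the open diamonds, which show the comparison used to choose the genes and carry no test, are lowest for CYP24A1 (-1.63) and STRA6 (-1.12).

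The DNA just before 1 start site is shown for RARB and for STRA6. RARB holds a textbook element for retinoic acid receptors, and the level of STRA6 was lowest in TGFβ + Aramchol among the 4 groups. RefSeq promoters (GRCh38.p14) were at hand for 6 of the 8 genes, with 18 start sites. They were searched on both strands, over the 250 bases before each start, for the core letters AGGTCA, for the variant AGTTCA, for a variant with GGGTCA and for one with GGTTCA, and for direct repeats of these cores with a spacer of 1 to 5 bases, which contain the single cores. The RARB window is chr3:25428013-25428262 (plus strand) and the STRA6 window chr15:74212260-74212509 (minus strand). Both are written 5′ to 3′ along the gene, with the repeat of RARB and the 3 cores of STRA6 in capitals (TGACCT is AGGTCA on the other strand).
RARB: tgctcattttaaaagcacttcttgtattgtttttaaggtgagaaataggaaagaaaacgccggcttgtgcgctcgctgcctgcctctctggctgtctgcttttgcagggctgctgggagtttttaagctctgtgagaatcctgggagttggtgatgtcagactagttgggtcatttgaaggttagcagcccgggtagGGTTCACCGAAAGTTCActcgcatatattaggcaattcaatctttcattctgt
STRA6: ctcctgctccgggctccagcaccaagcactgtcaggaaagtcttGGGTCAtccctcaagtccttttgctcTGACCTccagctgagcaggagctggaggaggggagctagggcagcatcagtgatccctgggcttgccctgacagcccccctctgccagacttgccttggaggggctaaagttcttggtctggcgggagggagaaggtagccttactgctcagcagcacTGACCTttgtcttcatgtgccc
The RARB window held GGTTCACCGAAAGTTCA, a direct repeat with a spacer of 5, from -53 to -37 relative to the start. This was the only one of the 18 windows with a direct repeat of any spacer from 1 to 5, and it is shown because it held the repeat. Of 35116 promoter windows of the same length, 0.0740% held a repeat with a spacer of 5. For the spacers of 1 to 5 taken singly the share was 0.0313% to 0.0968%, and a share for all of them together was not computed. At least 1 core was found in 10 of the 18 windows (55.6%), and in 33.8% of all 35116. The RARB repeat is a match of letters in a gene that had 27 counts or fewer in every library. For STRA6 the 3 cores start at -206, -180 and -22, and no direct repeat with these spacers was found in the window. That window belongs to the start farthest upstream of the 5 starts of STRA6, and 2 of the 5 held a core.

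Levels between genes were compared per exon length, as CPM per kb. On this scale CRABP2 had the highest level in all 4 groups, at 35.5 ± 11.8 in TGFβ + Aramchol, 39.4 ± 10.4 in TGFβ, 33.0 ± 6.19 in Aramchol and 35.5 ± 2.97 in vehicle. RARB had the lowest, with means of 0.0129 to 0.0290. CYP24A1 moved most in the order: its mean level per kb was 7.62 in TGFβ + Aramchol, rank 3, where it overlapped with RXRA, and 23.6 in TGFβ, rank 2, where it overlapped with RARA. It was 0.701 in Aramchol and 1.29 in vehicle, rank 7 in each, with a mean above that of RARB alone. In Aramchol its libraries overlapped with those of DHRS3, and in vehicle with those of STRA6 and DHRS3. STRA6 had rank 7 in TGFβ + Aramchol and in TGFβ and rank 6 in Aramchol and in vehicle, and overlapped with DHRS3 in all groups but TGFβ + Aramchol. RARA and RXRA overlapped in Aramchol and in vehicle, whereas RARA lay above RXRA in each library with TGFβ.

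**Figure D3:**
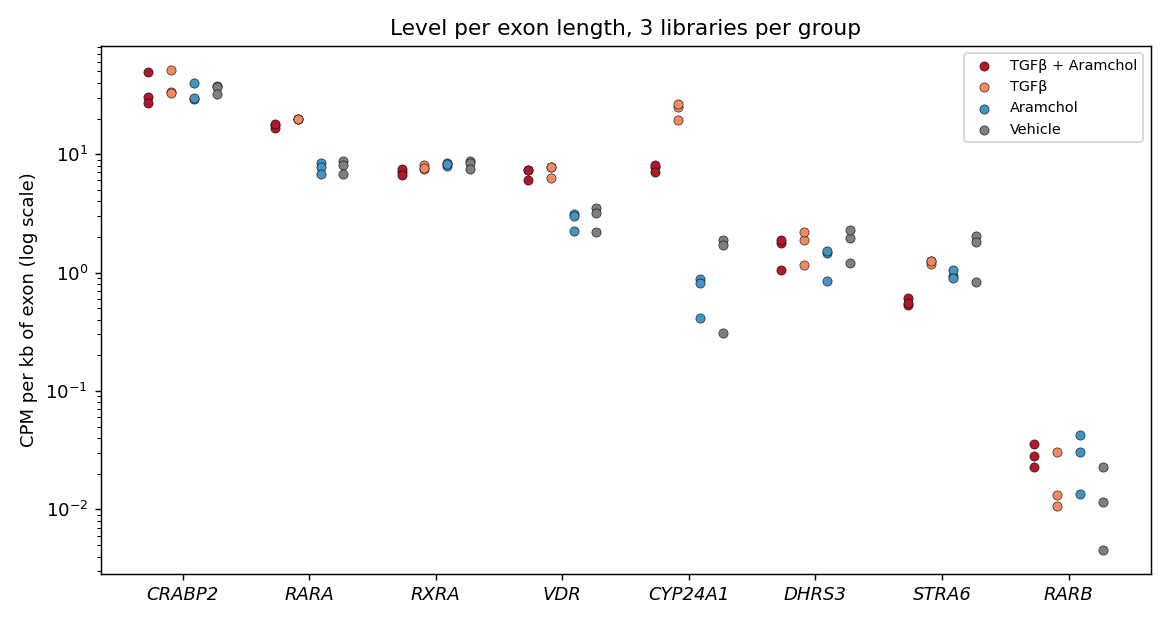
CPM per kb of exon (y axis, log scale) of the 8 genes, 1 point per library, with groups side by side from TGFβ + Aramchol to vehicle. CYP24A1 spans the levels from those of RARA in TGFβ (mean 23.6) to a mean below that of DHRS3 in Aramchol (0.701), and RARB lies far below the others.

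Among 23 tested of 31 listed genes of retinoid transport, storage and metabolism, 3 rose and 6 fell with TGFβ against vehicle, with a median log2 fold change of -0.09. The share called was 39.1%, near the 37.0% of all genes tested. SDR16C5, a retinol dehydrogenase, fell to 2.04 ± 0.087 CPM in TGFβ, against 6.24 ± 0.598 CPM in vehicle (log2 -1.61, adjusted p = 3.09e-07, edgeR). LRAT, which esterifies retinol for storage, was lower in TGFβ than in vehicle (log2 -1.42, adjusted p = 0.000816), at under 1 CPM in every library, and was named after its values were seen. RDH13, a mitochondrial retinal reductase, was lower in TGFβ + Aramchol than in Aramchol (11.7 ± 0.362 against 14.8 ± 0.421 CPM, adjusted p = 0.00674). CYP26A1, the hydroxylase of retinoic acid that is the counterpart of CYP24A1, had 0 counts in the 12 libraries, which allows up to 0.0410 to 0.0548 CPM per library at 3 counts. Its relative CYP26B1 had 0.878, 1.09 and 0.804 CPM in TGFβ + Aramchol, 0.319, 0.580 and 0.345 CPM in TGFβ, 0.475, 0.752 and 0.327 CPM in Aramchol, and 0.310, 0.165 and 0.403 CPM in vehicle. All TGFβ + Aramchol libraries were above the others for CYP26B1, which was called against vehicle (3.11-fold, adjusted p = 0.00224) and not against TGFβ (2.21-fold, adjusted p = 0.107). Both CYP26 genes were named after their values were seen.

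The list of other retinoid receptors and nuclear receptor coregulators had 12 tested genes of 12, of which 2 rose and 5 fell with TGFβ against vehicle (median log2 fold change -0.13), 58.3% called beside 37.0% of all genes tested. NRIP1, a corepressor of liganded receptors, rose to 50.9 ± 1.57 CPM in TGFβ, against 41.1 ± 2.62 CPM in vehicle (adjusted p = 0.000694, edgeR). TBL1X, a subunit of nuclear receptor corepressor complexes, fell to 23.8 ± 1.09 CPM in TGFβ, against 49.1 ± 3.29 CPM in vehicle (adjusted p = 6.29e-09). RXRG fell to 0.113 ± 0.0527 CPM in TGFβ, against 0.408 ± 0.0782 CPM in vehicle (adjusted p = 0.00222). RARG and RXRB, named after their values were seen, were called in no comparison. RARG averaged 38.3 to 41.0 CPM and RXRB 56.7 to 59.8 CPM in the 4 groups, so that of the 6 receptor genes of the RAR and RXR families RARA alone was called higher with TGFβ.

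Of 20 listed target genes of retinoic acid 14 could be tested, and 4 rose and 4 fell with TGFβ against vehicle (median log2 fold change -0.11), 57.1% called beside 37.0% of all genes tested. RAI14, an actin-binding protein, rose to 223 ± 22.8 CPM in TGFβ, against 86.7 ± 8.56 CPM in vehicle (2.57-fold, adjusted p = 5.09e-09, edgeR). PLAAT4, a phospholipase-like protein induced by retinoids, fell to 27.7 ± 1.26 CPM in TGFβ, against 77.3 ± 6.37 CPM in vehicle (2.78-fold, adjusted p = 8.87e-09). RARRES1, a retinoid-induced membrane protein, fell to 2.41 ± 0.336 CPM in TGFβ, against 6.16 ± 1.21 CPM in vehicle (2.55-fold, adjusted p = 1.19e-05). PLAAT4 and RARRES1 were also called lower in TGFβ + Aramchol than in Aramchol (log2 -1.39 and -1.24), and RAI14 higher (log2 1.11).

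**Figure D4:**
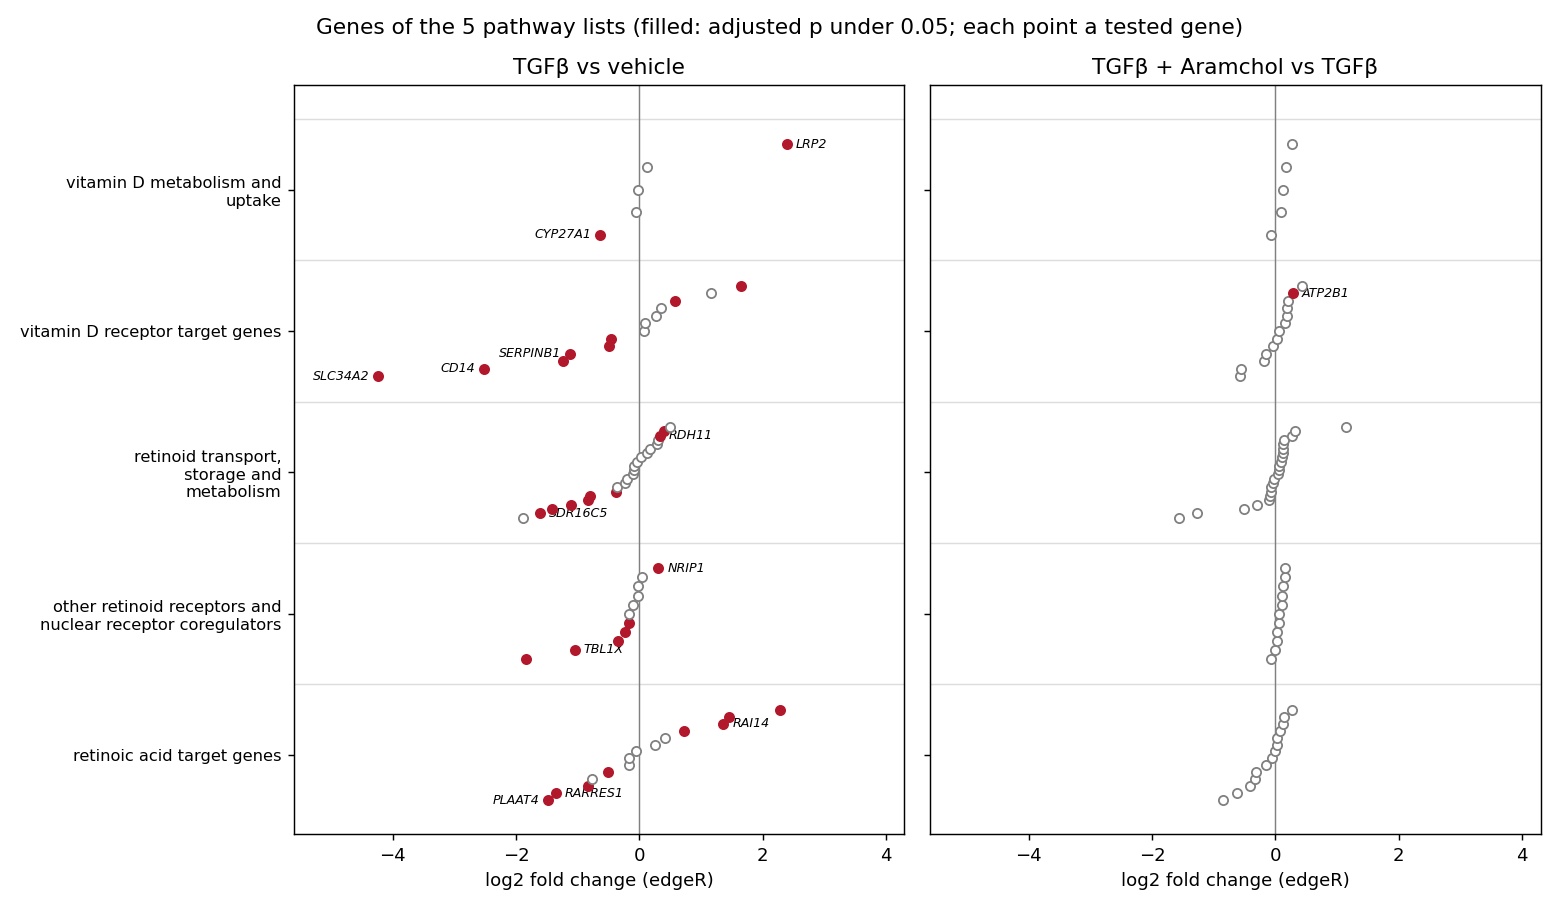
Log2 fold changes (x axis) of 65 of the 67 tested genes of the 5 lists (y axis), with TGFβ against vehicle on the left and TGFβ + Aramchol against TGFβ on the right, and filled points for an adjusted p under 0.05. On the left 32 genes are filled, from SLC34A2 (-4.24) to LRP2 (2.39, and 3.40 without vehicle replicate 2), and on the right ATP2B1 alone (0.28).

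Over the 5 lists together, 88 genes were listed and 67 tested. With TGFβ against vehicle 12 rose and 22 fell (50.7% called, beside 37.0% of all genes tested), and in TGFβ + Aramchol against Aramchol 8 rose and 23 fell (46.3%, beside 30.2%). Adding Aramchol to TGFβ gave 1 call of 67, a rise of ATP2B1, and none of the 67 was called in the interaction by edgeR, in which 0.0139% of all genes tested were called. At an unadjusted p under 0.05 the interaction had 5 of the 67, beside 5.27% of all genes tested, and DESeq2 called 0 (26 of the 67 had no adjusted p there). ATP2B1, a calcium pump of the plasma membrane that vitamin D can induce, had 141, 161 and 144 CPM in TGFβ + Aramchol, against 123, 121 and 124 CPM in TGFβ (log2 0.28, SE 0.06, adjusted p = 0.0258). It had 148, 151 and 142 CPM in Aramchol, against 114, 122 and 108 CPM in vehicle (log2 0.36, SE 0.06, adjusted p = 0.0203). Each pair of groups was without overlap, but the call against TGFβ was lost without TGFβ + Aramchol replicate 1 or 2 or any TGFβ library (adjusted p up to 0.133), and the call against vehicle without Aramchol replicate 1 or 2 or vehicle replicate 1 (adjusted p up to 0.116). With Aramchol against vehicle, RDH11, a retinal reductase, also rose, to 103, 104 and 110 CPM in Aramchol, against 80.7, 84.4 and 80.8 CPM in vehicle (log2 0.37, SE 0.05, adjusted p = 0.00531). RDH11 was likewise called higher in TGFβ than in vehicle (log2 0.33, adjusted p = 0.000107).

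The 5 protein coding genes most like CYP24A1 over the 12 libraries, by the smallest root mean square difference of centred log2 CPM, were KIAA1755 (0.464), DRAXIN (0.569), ACTA1 (0.573), DGKI (0.593) and SEMA7A (0.608), where the median of 14543 genes compared was 2.21. KIAA1755 averaged 3.94 ± 0.705 CPM in TGFβ + Aramchol, 7.61 ± 0.674 CPM in TGFβ, 0.315 ± 0.0992 CPM in Aramchol and 0.497 ± 0.220 CPM in vehicle. Its order of groups follows from its selection as the gene most like CYP24A1. The Aramchol and vehicle libraries of KIAA1755 overlapped (0.223 to 0.420 and 0.245 to 0.642 CPM). For STRA6 the closest were CGNL1 (0.272), NEURL2 (0.287), CEACAM1 (0.291), FGFR4 (0.293) and GMFG (0.304), with a median of 0.627. CEACAM1, a cell adhesion molecule, averaged 4.0 ± 0.703 CPM in TGFβ + Aramchol, 8.18 ± 0.220 CPM in TGFβ, 7.40 ± 1.93 CPM in Aramchol and 10.1 ± 1.28 CPM in vehicle. These distances describe the same 12 libraries and share their depth and scaling.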

How the data were processed

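RNA of 12 libraries of H69 cells was extracted with Trizol and made into libraries with an IDT kit, per the labels' protocols. Reads were aligned with STAR 2.7.9a to GRCh38 and counted per gene with featureCounts (Subread), per the submitters' processing notes. The table that the authors deposited gives raw counts for each gene and library, with exon coordinates and lengths. The sources used here give neither the annotation release nor the strand setting, and overlapping genes are therefore uncertain. Without molecular identifiers, limits from counts cover counting error only. All 12 columns were matched to samples by title, and no 2 libraries of a group were duplicates. Symbols were matched for 62625 of 62703 gene IDs, and 20616 IDs had no count.

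Low genes were removed with filterByExpr, and counts were scaled by TMM and fitted with edgeR 4.0.16 (quasi-likelihood, R 4.3.3), with 1 mean per group over the 12 libraries. Fold changes are log2 values, and p-values were adjusted over all 21567 genes tested. The procedure was tested on simulated data. CPM per kb used the deposited exon length. Log2 CPM for likeness used a prior count of 2. The 8 genes, the lists, the tests and the alternatives were chosen with earlier results of these data known. Genes of the 5 lists were named as the 3 called genes with the smallest p per list and comparison, and other names are marked as chosen after their values were seen. The values of 3 listed genes are not reported here; they stay in the counts, medians and sums over their lists. The alternatives were DESeq2 1.42.0, scaling by RLE or by the upper quartile, the test without a filter, a filter at 10 counts in 3 libraries with a mean CPM of 1, a replicate block, a term for the libraries numbered 3, only the libraries numbered 1 and 2, only the 2 groups compared and each library left out in turn. Promoter windows came from RefSeq (GRCh38.p14). Tables and figures were made in Python 3.11.15 (pandas 2.3.3, matplotlib 3.10.9 and numpy 2.4.6).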

Additional observations from a re-analysis of the deposited data

How the results depend on the processing

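Under RLE scaling, upper quartile scaling and a stricter filter, the numbers of the 8 genes and of the 67 pathway genes called stayed within 1.5 times their values in every comparison. Of the 8 genes, 5 were called with TGFβ against vehicle from the libraries numbered 1 and 2 alone, and 3 with all libraries. With Aramchol against vehicle, none was called with all libraries by edgeR, 4 from the libraries numbered 1 and 2 alone, 3 without a filter, and 1 each with the replicate block and with a term for number 3. Leaving out 1 library gave 3 to 5 with TGFβ against vehicle, 0 to 2 with Aramchol against vehicle, 3 to 5 in TGFβ + Aramchol against Aramchol and 4 to 5 against vehicle. Vehicle replicate 3 gave the highest number in each of the comparisons of a single agent with vehicle.

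Of the pathway genes, 2 were called with Aramchol against vehicle, 8 from the libraries numbered 1 and 2 alone, 0 from these groups alone, and 1 to 4 with 1 library left out. In TGFβ + Aramchol against TGFβ, 1 was called with all libraries, 3 by DESeq2, 6 without a filter, 9 from the libraries numbered 1 and 2 alone, 5 from these groups alone, 5 with the replicate block, 7 with a term for number 3, and 0 to 4 with 1 library left out. In the interaction it was 0, and 1 without a filter and 1 from the libraries numbered 1 and 2 alone. The causes were not tested.

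The replicate numbers did not meet the rule for pairing, a correlation of deviations over 0.1 in every same-numbered pair. All 18 such pairs were above 0 (0.00739 to 0.221), and 7 were over 0.1. These were all 6 pairs of number 3 (0.111 to 0.221) and 1 of the 6 of number 1, so that the libraries numbered 3 deviated together across groups. Pairs with other numbers lay at -0.146 to 0.0907, with 9 of 12 libraries closest to one of their own number. With the replicate block, DHRS3 gained calls in Aramchol against vehicle (-0.49, adjusted p = 0.0101) and in TGFβ + Aramchol against Aramchol (0.29, adjusted p = 0.0171). No fold change of the 8 genes that was called reversed under these alternatives. Counts limit RARB (3 to 27 per library) most.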
